A study of Homo sapiens with 18 samples.

Results

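The 10 genes described here are the D-type cyclins CCND1, CCND2 and CCND3, the cyclin-dependent kinases CDK2, CDK4, CDK6 and CDK14, and the CDK inhibitors CDKN1A, CDKN1B and CDKN2A. They were taken by gene symbol from a table of 58870 genes, and each symbol matched 1 row. The study sequenced RNA from 3 human melanoma cell lines, WM164, SKMEL28 and A375, that overexpressed either the small MAF transcription factor MAFG or green fluorescent protein (GFP) as the control. Each of the 6 groups held 3 libraries, 18 in all. According to the study's methods, lentivirus carried a Myc-DDK-tagged MAFG reading frame behind the EF1α promoter together with blasticidin resistance, and GFP took the place of MAFG in the control vector, so every group consisted of transduced and drug-selected cells and none was untransduced. The labels do not say whether the libraries of a group came from separate cultures, so the p-values measure the spread between these libraries, which may be technical.

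D-type cyclins bind CDK4 or CDK6 and, together with cyclin E and CDK2, phosphorylate the retinoblastoma protein, which releases E2F transcription factors and commits a cell to DNA replication. The INK4 protein encoded by CDKN2A blocks CDK4 and CDK6, while the products of CDKN1A (p21) and CDKN1B (p27) bind cyclin-CDK2 complexes and also assemble with cyclin D complexes. In melanoma, loss of CDKN2A and gain of cyclin D1 or CDK4 are well-known lesions, and CDK2 lies beside the melanosome gene PMEL on the opposite strand and is a known target of the melanocyte lineage factor MITF.

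Promoters could be read for 7 of the 10 members, as 12 windows of 300 bases from RefSeq on GRCh38.p14 that run from 250 bases before to 50 bases after a transcript start. They were searched on both strands for the E-box CACGTG, the M-box core CATGTG, the AP-1 site TGACTCA and the MAF half-site TGCTGA, of which the last 2 can share letters. Of 35116 windows of the same length, 7.256% held CACGTG, 11.098% CATGTG, 4.949% TGACTCA and 17.328% TGCTGA. Among the member windows, 2 held CACGTG, 1 held CATGTG, 0 held TGACTCA and 1 held TGCTGA. The CDK4 window is shown because it held the most matches, 3 of CACGTG and 1 of CATGTG, and the 2 CDK14 windows because CDK14 was the member that moved most. Capitals mark the matches, and CATGTG reads as CACATG on the strand printed. The CDK4 window, on the minus strand, is chr12:57752261-57752560. The CDK14 windows, on the plus strand, are chr7:90709148-90709447 and chr7:90709566-90709865, and neither held any of the 4 motifs.
CDK4: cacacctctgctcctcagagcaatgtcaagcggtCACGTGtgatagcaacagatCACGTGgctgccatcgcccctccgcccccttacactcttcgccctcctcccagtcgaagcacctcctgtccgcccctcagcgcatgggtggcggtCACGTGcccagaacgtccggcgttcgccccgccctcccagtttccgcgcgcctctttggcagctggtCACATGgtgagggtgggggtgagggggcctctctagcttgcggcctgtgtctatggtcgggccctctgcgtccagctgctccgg
CDK14 first window: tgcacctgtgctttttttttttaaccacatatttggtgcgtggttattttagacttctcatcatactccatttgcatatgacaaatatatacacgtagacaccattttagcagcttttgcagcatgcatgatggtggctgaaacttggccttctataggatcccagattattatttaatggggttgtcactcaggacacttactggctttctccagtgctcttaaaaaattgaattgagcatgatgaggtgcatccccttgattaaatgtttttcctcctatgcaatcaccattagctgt
CDK14 second window: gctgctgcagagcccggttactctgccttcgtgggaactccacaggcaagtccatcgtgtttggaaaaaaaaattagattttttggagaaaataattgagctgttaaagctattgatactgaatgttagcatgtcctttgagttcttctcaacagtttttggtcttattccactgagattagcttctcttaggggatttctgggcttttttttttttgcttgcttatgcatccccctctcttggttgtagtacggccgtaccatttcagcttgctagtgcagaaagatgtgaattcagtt

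The libraries held 20122172 to 39025042 counted reads, with a median of 31061375. MAFG itself checked the labels: in WM164 it read 25.6, 28.8 and 23.0 CPM (counts scaled to library size) with GFP and 56.0, 55.4 and 47.8 CPM with MAFG. In SKMEL28 the ranges were 20.1 to 26.2 and 35.8 to 38.9 CPM, in A375 23.7 to 32.7 and 37.8 to 56.3 CPM, and the groups did not overlap in any line. MAFG differed on the log2 scale by 1.04 in WM164 (edgeR adjusted p = 6.37e-08), 0.64 in SKMEL28 (adjusted p = 0.000128) and 0.80 in A375 (adjusted p = 0.0655). The deposited TPM values lay further apart, with GFP and MAFG means of 2.89 and 24.5 in WM164, 3.96 and 16.97 in SKMEL28, and 4.22 and 25.2 in A375. The lineage markers MITF and PMEL were high in WM164 and SKMEL28. In A375, MLANA and TYR had 0 counts in every library and PMEL at most 22, while MITF still had 879 to 1219. TYRP1 went the other way between WM164 and A375, with 0 to 5 counts in WM164 and 17 to 28 in A375. SOX10 had 266 to 411 counts in A375 GFP libraries and 3855 to 5630 in A375 MAFG libraries. Of 10 markers of blood, epithelial, endothelial and fibroblast cells, 4 to 6 were at 0 in every library of a group, and their summed level was between 0.07 and 12.96 TPM, a scale that also divides by transcript length. In A375, MAFG replicate 1 stood apart from the other 2 MAFG libraries, with mean chi-square values per gene of 68.7 and 96.7 against 15.8 between those 2 and 5.90 to 30.2 within the other groups. The counts called in A375, and the CCND3 and CDKN1A values there, are therefore given with and without that library. The other members in A375 are given with it, apart from ranges over single libraries left out.

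With MAFG, CCND1 was higher in WM164 and SKMEL28, CDK14 appeared in WM164 from almost nothing, CDK2 was lower in WM164, and CDKN1A rose in WM164 but fell in SKMEL28. In WM164, 4 of 9 tested members changed at an edgeR adjusted p of 0.05 or less (3 higher, 1 lower), beside 31.8% of all 15919 genes tested, and 1 member passed 2-fold as well, beside 6.94%. In SKMEL28, 6 of 9 changed (2 higher, 4 lower), beside 29.9% of 15523 genes, and 0 members passed 2-fold, beside 4.74%. In A375, 0 of 10 changed in edgeR, beside 0.843% of 15779 genes (0.665% past 2-fold). There 2 members had an unadjusted p under 0.05. The share of all genes at that threshold was not counted, so this count is no result about the members. DESeq2 called 1 member and limma on TPM called 0. Without A375 MAFG replicate 1, edgeR called 2 members and 393 genes in A375 in place of 133. The members were chosen with earlier results of these data known, so their shares are a description and no test. In WM164 the tested members had a median log2 fold change of 0.0026, beside -0.0015 for all genes, in SKMEL28 of -0.085, beside -0.0080, and in A375 of -0.054, beside -0.00037. Each line has its own GFP libraries, but the 3 tests of a difference between lines share them in pairs. With log2(TPM + 1) values the all-gene median itself lay at 0.14 in WM164, -0.14 in SKMEL28 and -0.10 in A375, so values on that scale are given below as fitted and again with this median taken off, while their adjusted p belongs to the value as fitted.

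**Figure D1:**
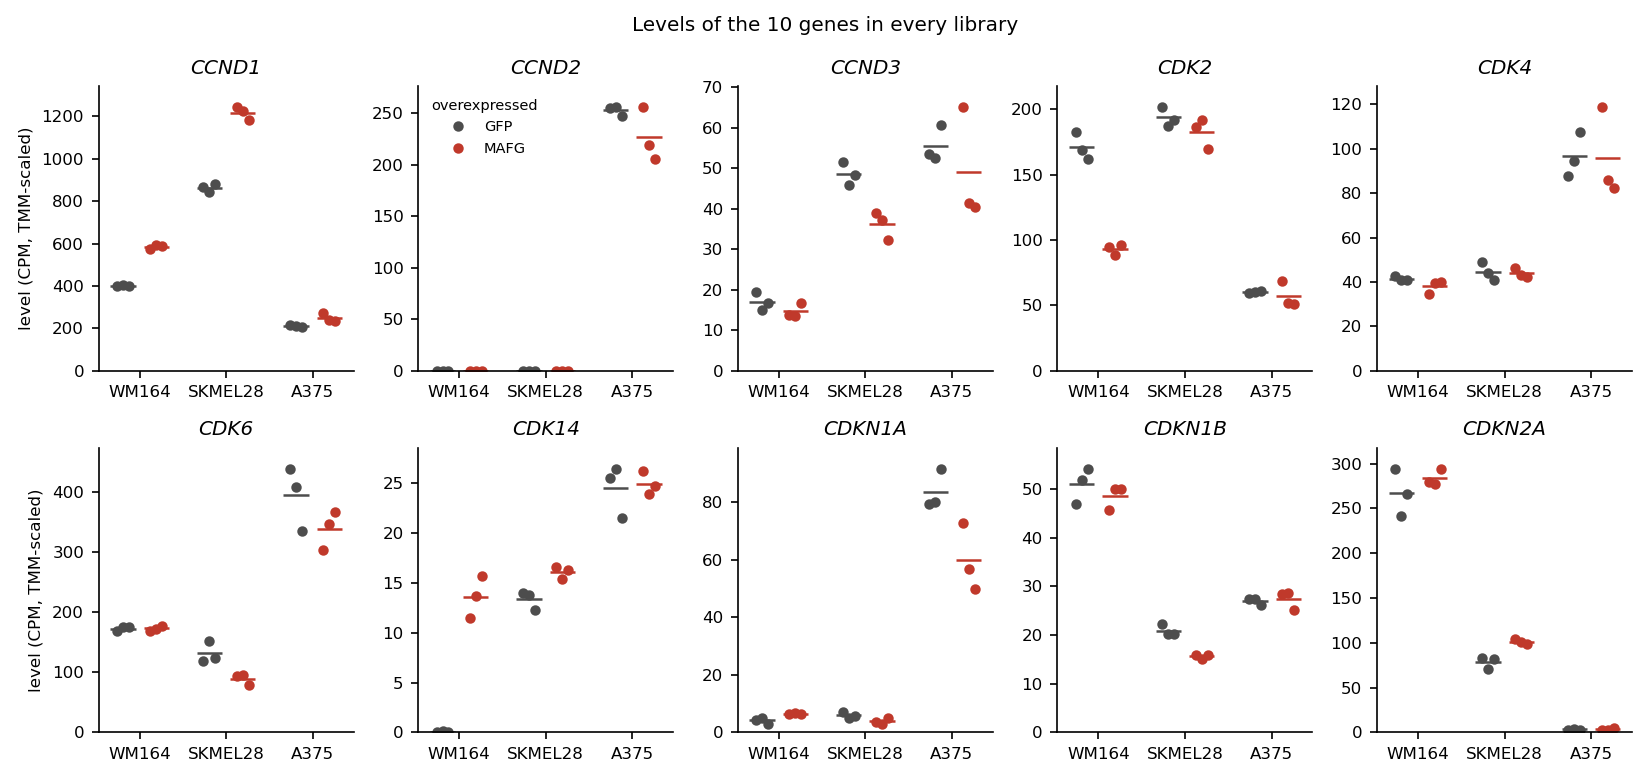
Levels of the 10 members in CPM in each of the 18 libraries (dots), with the mean of each group of 3 as a line, for GFP (grey) and MAFG (red) cells of WM164, SKMEL28 and A375. CCND1 is above the GFP libraries in every MAFG library of all 3 lines, though in A375 the edgeR adjusted p was 0.606. The share of all genes separated in this way was not counted. CDK14 lies at or below 0.10 CPM only in WM164 GFP cells.

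Cyclin D1, the product of CCND1 (chr11:69641156-69654474, plus strand; GRCh38, GENCODE 44), is the D-type cyclin most linked to melanoma. In WM164 its level was 398, 404 and 401 CPM with GFP and 577, 592 and 589 CPM with MAFG. In SKMEL28 it was 866, 842 and 879 CPM with GFP and 1243, 1226 and 1180 CPM with MAFG. In A375 it was 215, 212 and 209 CPM with GFP and 272, 242 and 236 CPM with MAFG. In each line all MAFG libraries lay above all GFP libraries, and the 6 groups themselves ran in an order without overlap from SKMEL28 MAFG down to A375 GFP. CCND1 rose by a log2 fold change of 0.55 ± 0.05 (SE, n = 3 against 3) in WM164, edgeR adjusted p = 9.03e-08, and by 0.50 ± 0.05 in SKMEL28, adjusted p = 5.28e-06. In A375 the difference was 0.23 ± 0.09, edgeR adjusted p = 0.606; one model over the 18 libraries gave 0.24 with an adjusted p of 0.0364, the lowest over the other settings (highest 0.9996).

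The CCND1 responses of WM164 and SKMEL28 differed by 0.05 ± 0.09 on the log2 scale (adjusted p = 0.808). The WM164 response was larger than that of A375 by 0.31 ± 0.09 (edgeR adjusted p = 0.0259), but this call was lost without any 1 of 8 libraries. These were WM164 GFP replicates 1 and 3, WM164 MAFG replicates 2 and 3, A375 GFP replicates 1 and 2 and A375 MAFG replicates 2 and 3, with adjusted p of 0.0534 to 0.0637. It was also lost with no count filter (adjusted p = 0.151), with the replicate number as a block (0.0664) and in limma on TPM (0.0757 and 0.101 with a pseudocount of 1 and of 0.1). Between SKMEL28 and A375 the responses differed by 0.26 ± 0.09 (adjusted p = 0.0637). Without A375 MAFG replicate 1 that difference was 0.32 with an adjusted p of 0.00294, the lowest in a range of 0.00294 to 0.135 over single libraries left out. Of the 9 tested members, 4 differed in response between WM164 and SKMEL28, beside 13.7% of 18767 genes. The count was 4 between WM164 and A375, beside 9.21%, and 1 between SKMEL28 and A375, beside 9.51%.

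CCND2 (chr12:4269771-4305353, plus strand), which encodes cyclin D2, was found in A375 alone among the 3 lines. Its level there was 255, 256 and 248 CPM with GFP and 256, 219 and 205 CPM with MAFG. In WM164 it had 2 counts in 1 MAFG library and 0 in the other 5 libraries, and in SKMEL28 it had 0 counts in all 6. Against the limit of 3 counts per library that a count of 0 allows, which covers counting error only, A375 GFP cells were at least 2088.5-fold higher than WM164 GFP cells and at least 1676.6-fold higher than SKMEL28 GFP cells. In A375 the MAFG and GFP libraries overlapped, and the log2 difference was -0.16 ± 0.09 (edgeR adjusted p = 0.959). CCND2 was not tested in the other lines.

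CCND3 (chr6:41934934-42050357, minus strand) encodes cyclin D3, the more widely expressed D-type cyclin. In SKMEL28 its level was 51.6, 45.8 and 48.4 CPM with GFP and 39.1, 37.3 and 32.4 CPM with MAFG, with no overlap. It fell there by 0.42 ± 0.08 on the log2 scale (edgeR adjusted p = 0.000905), and one model over the 18 libraries left the adjusted p at 0.0560, the highest of the other settings, whose lowest was 2.29e-06. In WM164 it was 15.0 to 19.6 CPM with GFP and 13.6 to 16.7 CPM with MAFG, with overlap and a log2 difference of -0.22 ± 0.11 (adjusted p = 0.175). In A375, GFP libraries gave 53.5, 52.6 and 60.7 CPM and MAFG libraries 65.1, 41.6 and 40.5 CPM, so that MAFG replicate 1 was the highest of the 6 and the other MAFG libraries the lowest. The log2 difference was -0.19 ± 0.16 (adjusted p = 0.997), and without that library it was -0.42 with an adjusted p of 0.0433, the lowest over single libraries left out; without any other library CCND3 was not called.

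Levels of different genes were compared in TPM. CCND1 made up 91.2 ± 0.77% (SD, n = 3) of the summed D-type cyclin TPM in WM164 GFP cells and 94.6 ± 0.45% in WM164 MAFG cells. In SKMEL28 the share was 91.2 ± 0.46% with GFP and 95.1 ± 0.57% with MAFG, and in A375 46.6 ± 1.18% and 57.4 ± 2.34%. The lowest MAFG share lay above the highest GFP share in each line; 3 libraries against 3 cannot give an exact permutation p below 0.10. In A375, CCND2 held 30.7% with GFP and 24.6% with MAFG, and CCND3 22.8% and 18.03%. The summed TPM of the 3 genes was 66.8 with GFP and 104.8 with MAFG in WM164, 259 and 310.5 in SKMEL28, and 107 and 107 in A375.

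**Figure D2:**
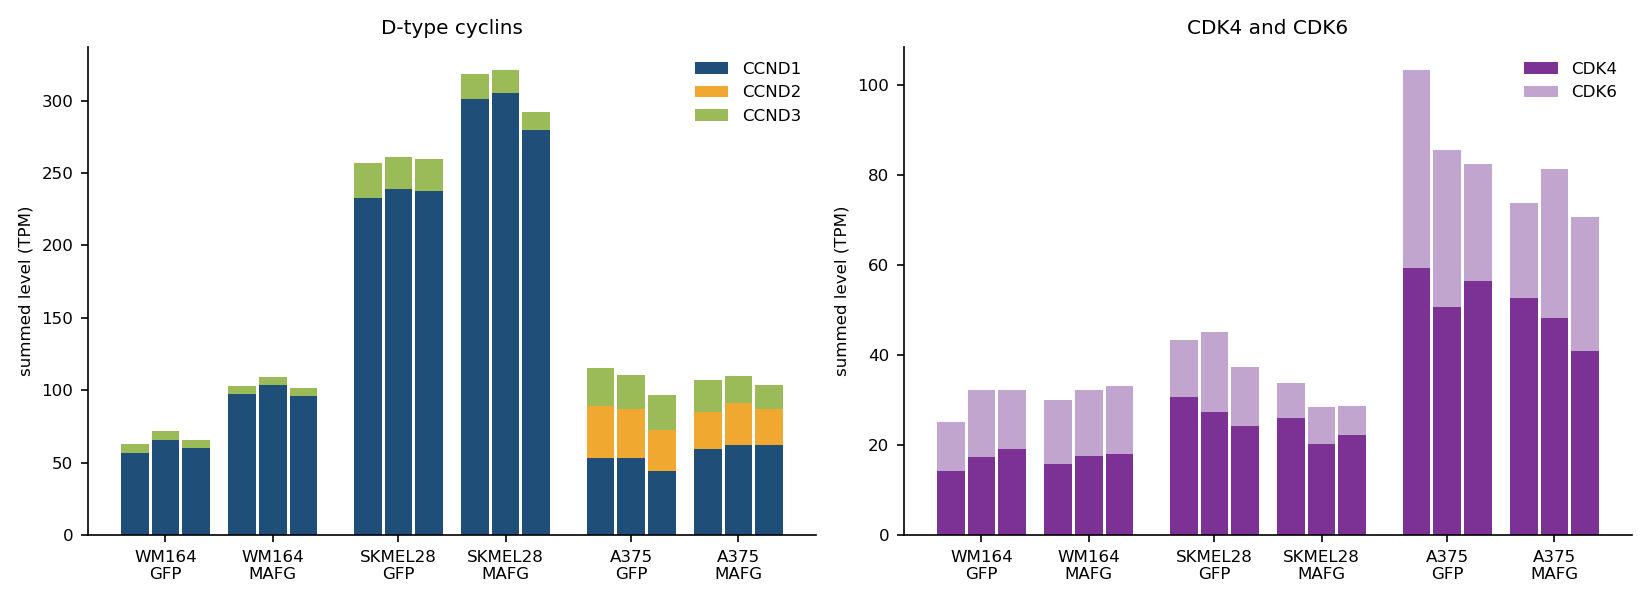
Stacked bars of TPM in each of the 18 libraries, for CCND1, CCND2 and CCND3 on the left and CDK4 and CDK6 on the right, from 0. WM164 and SKMEL28 bars hold almost no CCND2 (a mean of at most 0.0033 TPM), and in A375 the CCND1 share of the bar is 46.6% with GFP and 57.4% with MAFG.

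The partner kinase CDK4 (chr12:57747727-57756013, minus strand), which has the CACGTG-rich promoter shown above, changed in no line. In WM164 it was 42.9, 41.1 and 40.7 CPM with GFP and 34.5, 39.8 and 39.8 CPM with MAFG. The groups did not overlap, but the log2 difference was -0.13 ± 0.08 (edgeR adjusted p = 0.219), and on the TPM scale it was 0.021 (limma adjusted p = 0.930), or -0.12 with the all-gene median taken off. In SKMEL28 and A375 the groups overlapped, with log2 differences of -0.02 ± 0.08 and -0.02 ± 0.14 (adjusted p = 0.862 and 0.997), whose signs each turned when single libraries were left out. In GFP cells CDK4 was highest in A375, at 88.0 to 107 CPM, against 41.1 to 48.9 CPM in SKMEL28 and 40.7 to 42.9 CPM in WM164. CDK4 shares 1369 exon bases with TSPAN31 on the opposite strand, and TSPAN31 had a mean of 300 counts per library; whether counting used strand is not stated in the sources used here.

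CDK6 (chr7:92604921-92836573, minus strand), the second kinase of cyclin D, was lower with MAFG in SKMEL28. Its level there was 118, 153 and 124 CPM with GFP and 93.8, 95.3 and 79.0 CPM with MAFG, with no overlap. It fell by 0.55 ± 0.09 on the log2 scale (edgeR adjusted p = 0.000199). In WM164 the libraries lay at 168 to 175 CPM with GFP and 169 to 178 CPM with MAFG, a log2 difference of 0.0026 ± 0.05 (adjusted p = 0.978) whose sign turned without a count filter. The 2 responses differed by 0.56 ± 0.15 (edgeR adjusted p = 0.0139), and without SKMEL28 GFP replicate 2, the highest of its group, the adjusted p was 0.0529, the highest over single libraries left out (lowest 0.00389). In A375, CDK6 was 336 to 439 CPM with GFP and 303 to 366 CPM with MAFG, with overlap, a log2 difference of -0.22 ± 0.13 and an adjusted p of 0.949.

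The share of CDK4 in the summed CDK4 and CDK6 TPM was 65.4 ± 4.99% with GFP and 75.2 ± 3.53% with MAFG in SKMEL28, and the groups did not overlap. It was 56.7% with GFP and 53.8% with MAFG in WM164 and 61.8% and 62.9% in A375, where the groups overlapped. In counts, which are not divided by length, CDK6 had more reads than CDK4 in every group, and the CDK4 share was 18.01% to 33.1%. The summed TPM of both kinases was 42.0 with GFP and 30.3 with MAFG in SKMEL28, 29.9 and 31.8 in WM164 and 90.4 and 75.2 in A375.

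CDK2 (chr12:55966781-55972789, plus strand), the partner of cyclins E and A, was lower with MAFG in WM164. Its level there was 183, 168 and 162 CPM with GFP and 94.8, 88.6 and 96.2 CPM with MAFG, and the groups lay far apart. It fell by 0.88 ± 0.06 on the log2 scale (edgeR adjusted p = 3.04e-09), to 54.5% of the mean GFP level. In SKMEL28 the libraries overlapped, at 187 to 202 CPM with GFP and 170 to 191 CPM with MAFG, and the log2 difference was -0.09 ± 0.06 (adjusted p = 0.325). In A375 they were 59.9 to 61.3 CPM and 51.5 to 68.6 CPM, with MAFG replicate 1 the highest, and the log2 difference was -0.08 ± 0.12 (adjusted p = 0.997). The WM164 response differed from that of SKMEL28 by -0.79 ± 0.13 (edgeR adjusted p = 0.000229) and from that of A375 by -0.80 ± 0.13 (adjusted p = 0.000248).

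CDK2 overlaps PMEL by 89 exon bases on the opposite strand, and the labels name a kit that does not mark strand while the methods name one that does. Mean PMEL levels fell in WM164 from 931.5 CPM with GFP to 340 CPM with MAFG, a log2 change of -1.46 ± 0.07 (edgeR adjusted p = 2.66e-11), while mean CDK2 went from 171 to 93.2 CPM. In SKMEL28 PMEL went from 1697 to 1072 CPM (log2 change -0.66 ± 0.07, adjusted p = 2.93e-06), an absolute drop of the same order, while mean CDK2 went from 194 to 182 CPM and did not pass the test. In A375, PMEL was at most 0.51 CPM and CDK2 was 51.5 to 68.6 CPM, so the CDK2 reads there came with almost no PMEL. MITF moved in the same direction, by -0.65 ± 0.05 in WM164 (adjusted p = 1.55e-08) and -0.20 ± 0.05 in SKMEL28 (adjusted p = 0.00967). By TPM, CDK2 in WM164 was 53.6 ± 5.23 with GFP and 35.7 ± 2.51 with MAFG, and limma on log2(TPM + 1) gave -0.57 (adjusted p = 0.0123). That change was -0.71 with the all-gene median taken off. On that scale the response differences were -0.35 against SKMEL28 (limma adjusted p = 0.195) and -0.36 against A375 (adjusted p = 0.230). The all-gene medians there were 0.26 and 0.21, and with these taken off the differences were -0.61 and -0.57. Limma on TPM made neither of those 2 calls, whose adjusted p ran from 1.15e-08 to 0.229 and from 3.95e-08 to 0.268 over the settings tried. The part of PMEL reads in the CDK2 values was not tested.

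**Figure D3:**
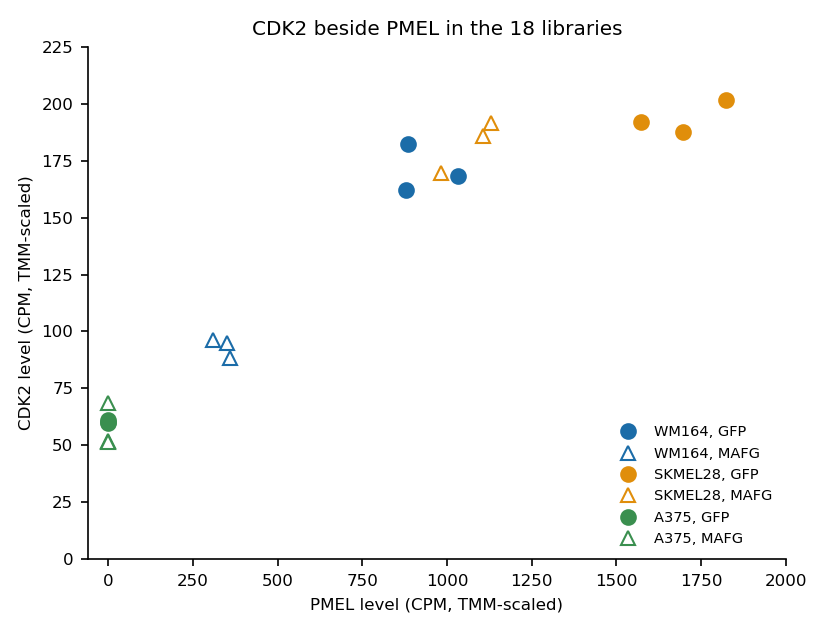
CDK2 level (vertical axis, CPM) against the level of its neighbour PMEL (horizontal axis, CPM) in the 18 libraries, marked by cell line and by GFP or MAFG. WM164 libraries separate on both axes, SKMEL28 libraries on the PMEL axis only, and A375 libraries have at most 0.51 CPM of PMEL with 51.5 to 68.6 CPM of CDK2.

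CDK14 (chr7:90466424-91210590, plus strand) encodes a kinase that pairs with cyclin Y and is known for a role in Wnt receptor phosphorylation. In WM164 the GFP libraries held 0, 3 and 1 counts, or 0, 0.10 and 0.04 CPM, and the MAFG libraries 11.4, 13.7 and 15.7 CPM. The 3 MAFG libraries together held 1204 counts against 4, a depth-adjusted ratio of 286 with a 95% exact interval of 111 to 1050 that covers counting error only. The edgeR adjusted p was 3.02e-12, and since the GFP libraries were at or near the floor the fitted log2 value of 8.02 depends on the prior count. With MAFG, the WM164 level overlapped that of SKMEL28 GFP libraries, at 14.0, 13.8 and 12.3 CPM. In SKMEL28 the MAFG libraries gave 16.6, 15.4 and 16.3 CPM, above all GFP libraries, with a log2 difference of 0.27 ± 0.10 (adjusted p = 0.0633); on the TPM scale the sign turned to -0.34 (limma adjusted p = 0.197), or -0.19 with the all-gene median taken off. In A375 the libraries overlapped, at 21.6 to 26.5 CPM with GFP and 23.9 to 26.2 CPM with MAFG (log2 difference 0.02 ± 0.12, edgeR adjusted p = 0.997).

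The WM164 response of CDK14 exceeded that of both other lines, with edgeR adjusted p of 4.51e-12 and 1.32e-12. CDK14 shares 201 exon bases on the same strand with CLDN12, which averaged 1282 counts per library, and the division of reads between them depends on the counting. In TPM, CDK14 was 0.0033 ± 0.0058 with GFP and 2.51 ± 1.37 with MAFG in WM164, below CCND3 at 5.697 ± 0.33 TPM in the same MAFG cells. The 2 promoter windows printed above start inside the annotated gene, and the counts do not tell which start was in use.

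**Figure D4:**
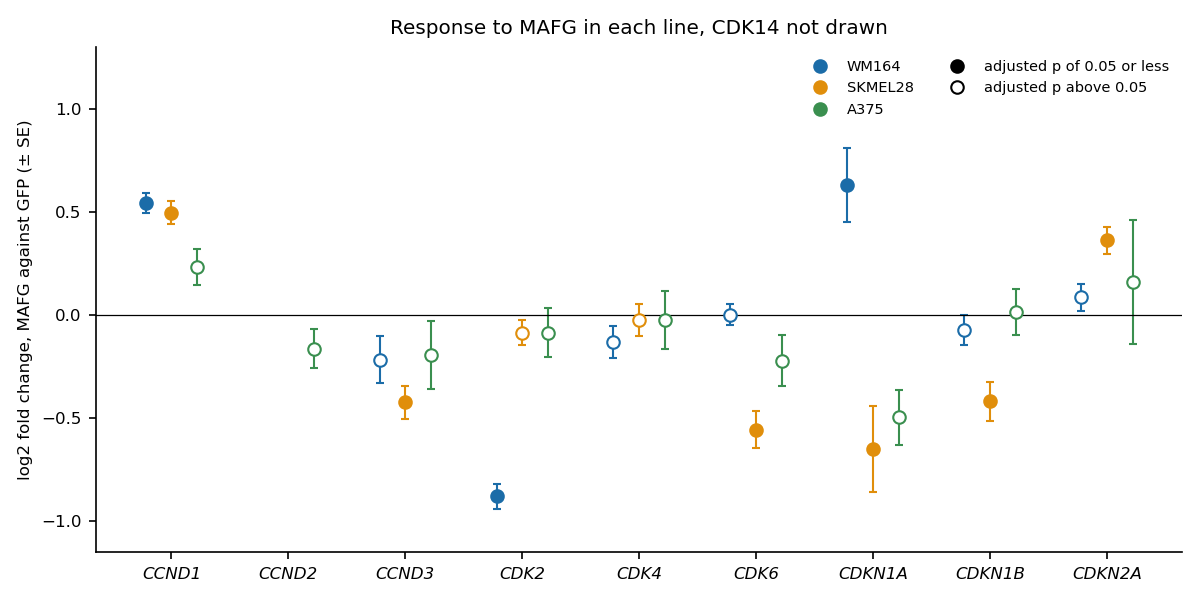
Log2 fold changes of MAFG against GFP (vertical axis) with standard errors for 9 members (horizontal axis) in the 3 lines; filled points have an edgeR adjusted p of 0.05 or less, and CDK14 is left out since its WM164 value has GFP libraries near 0 counts. CCND1 is filled in WM164 and SKMEL28 at 0.55 and 0.50, CDK2 in WM164 at -0.88, and CDKN1A lies at 0.63 in WM164 and -0.65 in SKMEL28.

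CDKN1A (chr6:36676460-36687337, plus strand) encodes p21, the inhibitor that p53 induces. In WM164 its level was 4.32, 5.08 and 3.08 CPM with GFP and 6.37, 6.76 and 6.30 CPM with MAFG. In SKMEL28 it was 7.13, 4.92 and 5.87 CPM with GFP and 3.57, 3.08 and 4.84 CPM with MAFG. The groups did not overlap in either line, and they moved in opposite directions. CDKN1A rose by 0.63 ± 0.18 on the log2 scale in WM164 (edgeR adjusted p = 0.0113) and fell by 0.65 ± 0.21 in SKMEL28 (adjusted p = 0.0272), a difference between responses of 1.28 ± 0.27 (adjusted p = 0.00277). Without WM164 GFP replicate 3, its lowest library, the WM164 adjusted p was 0.0604, and over single libraries left out it ran from 0.00403 to 0.0604. On the TPM scale the change was 0.46 (limma adjusted p = 0.0542), or 0.32 with the all-gene median taken off. The SKMEL28 call was lost without GFP replicate 1 (0.147), GFP replicate 3 (0.0534), MAFG replicate 1 (0.0842) or MAFG replicate 2 (0.108), and the lowest value was 0.00962. The difference between the responses kept an adjusted p of 0.0135 or less without any single library and of 0.00701 or less under the other settings.

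In A375, CDKN1A was far more abundant, at 79.2, 79.9 and 91.6 CPM with GFP and 72.6, 56.6 and 49.9 CPM with MAFG. All MAFG libraries lay below all GFP libraries, with a log2 difference of -0.49 ± 0.13 and an edgeR adjusted p of 0.226. DESeq2 gave -0.50 with an adjusted p of 0.0371 and edgeR without a count filter 0.0106, in a range of 0.0106 to 0.630 over the other settings. Without A375 MAFG replicate 1 the difference was -0.63 (adjusted p = 0.00478, in a range of 0.00478 to 0.700 over single libraries left out). The response differed between WM164 and A375 by 1.12 ± 0.24 (edgeR adjusted p = 0.00451), while that of SKMEL28 and A375 differed by -0.17 ± 0.25 (adjusted p = 0.787).

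CDKN1B (chr12:12685498-12722369, plus strand) encodes p27, which restrains cyclin E-CDK2. In SKMEL28 it was 22.2, 20.2 and 20.2 CPM with GFP and 16.0, 15.1 and 15.8 CPM with MAFG, with no overlap. It fell by 0.42 ± 0.09 on the log2 scale (edgeR adjusted p = 0.00272). In WM164 and A375 the groups overlapped, at 46.9 to 54.2 against 45.67 to 49.998 CPM and at 26.2 to 27.4 against 25.1 to 28.7 CPM, with log2 differences of -0.07 ± 0.07 and 0.02 ± 0.11 (adjusted p = 0.515 and 0.997). On the TPM scale these 2 small differences were 0.074 (limma adjusted p = 0.751) and -0.12 (adjusted p = 0.969), or -0.063 and -0.016 with the all-gene median taken off. The SKMEL28 response differed from that of A375 by -0.44 ± 0.12 (edgeR adjusted p = 0.0272) and from that of WM164 by 0.35 ± 0.12 taken as WM164 minus SKMEL28 (adjusted p = 0.0649). The first call was lost without any 1 of 7 libraries, namely the 3 A375 GFP libraries, A375 MAFG replicate 2, SKMEL28 GFP replicate 1 and SKMEL28 MAFG replicates 2 and 3, with adjusted p of 0.0507 to 0.0972. It was also lost with no count filter (adjusted p = 0.136), with the replicate number as a block (0.0536) and in limma on TPM (0.322 and 0.334 with a pseudocount of 1 and of 0.1). The second reached 0.0384 without A375 MAFG replicate 1, at the same size of 0.35, in a range of 0.0384 to 0.180.

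CDKN2A (chr9:21967752-21995301, minus strand) encodes the INK4 inhibitor p16 and, from another first exon, the MDM2-binding protein ARF, and gene counts do not separate them. In SKMEL28 its level was 83.0, 71.1 and 82.1 CPM with GFP and 104, 101 and 99.1 CPM with MAFG. It rose there by 0.36 ± 0.07 on the log2 scale (edgeR adjusted p = 0.000681), with no overlap, while TPM gave 0.20 (limma adjusted p = 0.140; 0.35 with the all-gene median taken off) and one model over the 18 libraries an adjusted p of 0.0787, in a range of 1.40e-06 to 0.155. In WM164, where the level was highest, GFP libraries gave 294, 242 and 266 CPM and MAFG libraries 280, 278 and 295 CPM, with overlap and a log2 difference of 0.09 ± 0.06 (edgeR adjusted p = 0.342). Without WM164 GFP replicate 1, the highest of its group, that adjusted p was 0.0491, in a range of 0.0491 to 0.889. In A375 its level was the lowest of the 3 lines, at 2.85 to 4.18 CPM with GFP and 2.84 to 5.37 CPM with MAFG (log2 difference 0.16 ± 0.30, adjusted p = 0.997), and leaving out single libraries turned its sign. CDKN2A shares 593 exon bases with CDKN2B-AS1 on the opposite strand, which averaged 303 counts per library.

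The lines also differed in the levels of their GFP cells. Among GFP cells, WM164 and SKMEL28 differed in 7 of 9 tested members, beside 56.8% of 18767 genes, WM164 and A375 in 10 of 10, beside 71.5%, and SKMEL28 and A375 in 9 of 10, beside 68.6%. In CPM, A375 held the most CDK4, CDK6, CDK14 and CDKN1A, and WM164 the most CDKN1B and CDKN2A. In TPM, the GFP libraries of SKMEL28 and A375 overlapped for CDK14, at 2.73 to 4.7 and 2.91 to 5.41. Those of WM164 and A375 overlapped for CDKN1B, at 11.33 to 15.51 and 10.29 to 12.61. For CDKN2A the GFP levels of WM164 and A375 differed by 6.30 ± 0.18 on the log2 scale, a 78.8-fold difference (edgeR adjusted p = 1.96e-17), and those of SKMEL28 and A375 by 4.54 ± 0.17 (adjusted p = 1.66e-15). For CDKN1A the order was the opposite, with WM164 19.96-fold and SKMEL28 13.9-fold below A375 (adjusted p = 1.62e-14 and 8.14e-14). CCND1 was 4.07-fold higher in SKMEL28 than in A375 (adjusted p = 6.99e-17) and 2.15-fold higher than in WM164 (adjusted p = 3.11e-12).

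The pairs that did not pass were CDK2 and CDK4 between WM164 and SKMEL28 (adjusted p = 0.0991 and 0.470) and CCND3 between SKMEL28 and A375 (adjusted p = 0.247). On the TPM scale limma gave -0.70 for CDK2 and -0.67 for CDK4 between WM164 and SKMEL28 (adjusted p = 0.000127 and 0.000456), where the all-gene median was itself -0.42, and with this taken off the values were -0.27 and -0.24. In edgeR, CDK2 also passed without A375 MAFG replicate 1 (adjusted p = 0.0126). CDKN1A was lower in WM164 than in SKMEL28 by 0.53 ± 0.19 (edgeR adjusted p = 0.0250), a call lost without WM164 GFP replicate 3 (0.143) or SKMEL28 GFP replicate 1 (0.166), with a lowest value of 0.0104. CDK6 was higher in WM164 than in SKMEL28 by 0.39 ± 0.10 in CPM (adjusted p = 0.00326), and in TPM by -0.16 (limma adjusted p = 0.505), or 0.27 with the all-gene median taken off. The line of each library set most of the pattern across the 18 libraries, so the genes whose log2 CPM ran most like a member are given as a description. By Pearson's r over 18767 genes they were OSBPL5 for CCND1 (r = 0.989), BEND4 for CCND2 (r = 0.9996), UBE2S for CCND3 (r = 0.989), CLCN7 for CDK2 (r = 0.989), SHISA5 for CDK4 (r = 0.989), IGF2BP1 for CDK6 (r = 0.980), PARP8 for CDK14 (r = 0.972), FADS2 for CDKN1A (r = 0.992), EFNA5 for CDKN1B (r = 0.983) and MTUS1 for CDKN2A (r = 0.996).

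The rest of the pathway was read in 6 lists. Their counts of changed genes stand beside the 31.8% of all genes called in WM164 and the 29.9% called in SKMEL28. Of all genes called, 2580 were higher and 2485 lower in WM164, and 2265 higher and 2375 lower in SKMEL28. Most lists had shares near those of all genes. The higher shares were those of the p53 targets in WM164 (8 of 15) and of the RB and E2F proteins in SKMEL28 (7 of 13). No list was tested against the other genes, and the lists were chosen with earlier results of these data known. Of 16 other cell cycle cyclins and CDKs, 5 of 15 tested changed in WM164 (1 higher, 4 lower), with a median log2 fold change of -0.14, and 6 of 16 in SKMEL28 (5 higher, 1 lower), with a median of 0.15. CDK1, the mitotic kinase, fell by 0.37 ± 0.08 in WM164 (edgeR adjusted p = 0.00144) and rose by 0.46 ± 0.07 in SKMEL28 (adjusted p = 0.000204); its mitotic partner CCNB1 did the same, by -0.20 ± 0.06 and 0.41 ± 0.07 (adjusted p = 0.0205 and 0.000264). The responses of WM164 and SKMEL28 differed by -0.84 ± 0.16 for CDK1 and -0.62 ± 0.11 for CCNB1 (edgeR adjusted p = 0.00103 and 0.000661), beside 13.7% of all genes. The largest changes were CDK18, a member of the PCTAIRE kinases, which rose by 1.10 ± 0.06 in WM164 from 51.8 to 111 CPM (adjusted p = 1.22e-10), and CCNA1, the germline cyclin A, which fell by 1.37 ± 0.19 in SKMEL28 from 8.78 to 3.39 CPM (adjusted p = 5.93e-05). CDK1 and CCNB1 were singled out after their values were seen, CDK1 being also among the genes the naming rule gives.

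Of 5 other CDK inhibitors, 2 rose in WM164 and 2 others in SKMEL28, beside 31.8% and 29.9% of all genes changed. In WM164 these were CDKN1C (p57), at 3.98 CPM with GFP and 9.08 CPM with MAFG (log2 fold change 1.19 ± 0.14, edgeR adjusted p = 4.34e-06), and CDKN2B (p15), at 30.4 and 51.9 CPM (0.77 ± 0.08, adjusted p = 5.91e-07). In SKMEL28 they were CDKN3, a phosphatase that acts on CDKs, and CDKN2C (p18), with log2 fold changes of 0.52 and 0.44. The list's medians were -0.041 and 0.078.

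Of 13 RB and E2F proteins, 4 changed in WM164 (1 higher, 3 lower), beside 31.8% of all genes. In SKMEL28 7 changed (3 higher, 4 lower), beside 29.9%. The same shares of all genes stand beside the E2F targets below. RB1, the retinoblastoma gene, rose by 0.21 ± 0.06 and 0.33 ± 0.07 (edgeR adjusted p = 0.0125 and 0.00112), and TFDP2, an E2F dimer partner, fell by 0.67 ± 0.11 and 0.39 ± 0.07 (adjusted p = 8.80e-05 and 0.000330). E2F5 rose in SKMEL28 by 1.60 ± 0.31 from 1.35 to 4.05 CPM (adjusted p = 0.00102). Of 15 E2F target genes of DNA replication, 4 fell in WM164, namely MCM3, MCM5, MCM7 and TYMS, by 0.19 to 0.28, while in SKMEL28 3 rose and 2 fell, with POLA1, the catalytic subunit of DNA polymerase alpha, at 0.65 ± 0.08 (adjusted p = 9.25e-06) and MCM2, a helicase subunit, at -0.47 ± 0.09 (adjusted p = 0.000665). The medians of these targets were -0.14 in WM164 and 0.036 in SKMEL28, and those of the RB and E2F list -0.14 and -0.061.

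Of 16 regulators of CDK activity and of cyclin or inhibitor turnover, 5 fell and 0 rose in WM164. Of all genes, 31.8% changed there and 29.9% in SKMEL28. The list's median in WM164 was -0.10, and DESeq2 called 3. The 5 genes were CKS2, a CDK-binding subunit, CDC25C, the phosphatase that activates CDK1, PKMYT1, CDC20 and FZR1. Their log2 changes lay between -0.61 and -0.25. In SKMEL28 2 rose and 2 fell (median -0.064; DESeq2 called 3), with AMBRA1, a factor of cyclin D degradation, at -0.41 ± 0.10 (edgeR adjusted p = 0.00641) and CUL1, a ubiquitin ligase scaffold, at 0.29 ± 0.06 (adjusted p = 0.000928). Of 15 p53 pathway targets, 8 changed in WM164 (7 higher, 1 lower, median 0.35), beside 31.8% of all genes. In SKMEL28 5 changed (1 higher, 4 lower, median -0.11), beside 29.9%. The WM164 genes included MDM2, the ligase of p53, at 0.44 ± 0.06 (adjusted p = 2.90e-05) and PHLDA3 at 0.55 ± 0.11 (adjusted p = 0.000734). Those of SKMEL28 included GADD45A, a stress response gene, at -1.18 ± 0.06 (adjusted p = 1.87e-09) and PLK3 at -1.14 ± 0.10 (adjusted p = 4.79e-07). The list's log2 changes ran from -0.31 to 0.55 in WM164 and from -1.18 to 0.79 in SKMEL28, so each line held both directions. CDKN1A, which is not in this list, was higher in WM164 and lower in SKMEL28.

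In A375, edgeR called 0 genes in each of the 6 lists, as did DESeq2. The lists were not refitted without A375 MAFG replicate 1. The share of all genes with an unadjusted p under 0.05 was not counted, so counts at that threshold are no result about the lists. At that threshold there were 2 other cyclins and CDKs, 2 other inhibitors and 0 RB and E2F proteins. There were also 0 E2F targets, 2 regulators and 1 p53 target. The medians were -0.11, 0.19, -0.046, -0.076, -0.058 and -0.17 in that order, beside -0.00037 for all genes. Melanocyte lineage markers moved with MAFG in 5 of 6 tested genes in WM164 (all 5 lower), 4 of 7 in SKMEL28 (1 higher, 3 lower) and 1 of 3 in A375, where SOX10 rose by 3.68 ± 0.21 from 8.85 to 114 CPM (edgeR adjusted p = 2.12e-05). Of the markers of other cell types, 1 of 2 tested changed in WM164 and in SKMEL28, which was LUM in both, lower in WM164 (means of 17.9 CPM with GFP and 8.96 CPM with MAFG) and higher in SKMEL28 (11.6 and 19.9 CPM), and 0 of 1 changed in A375 in edgeR, where that gene had an unadjusted p under 0.05 and DESeq2 called it. Both sets of marker counts stand beside 31.8%, 29.9% and 0.843% of all genes called in WM164, SKMEL28 and A375. The part of these markers in the values of the cyclins, kinases and inhibitors was not tested.

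**Figure D5:**
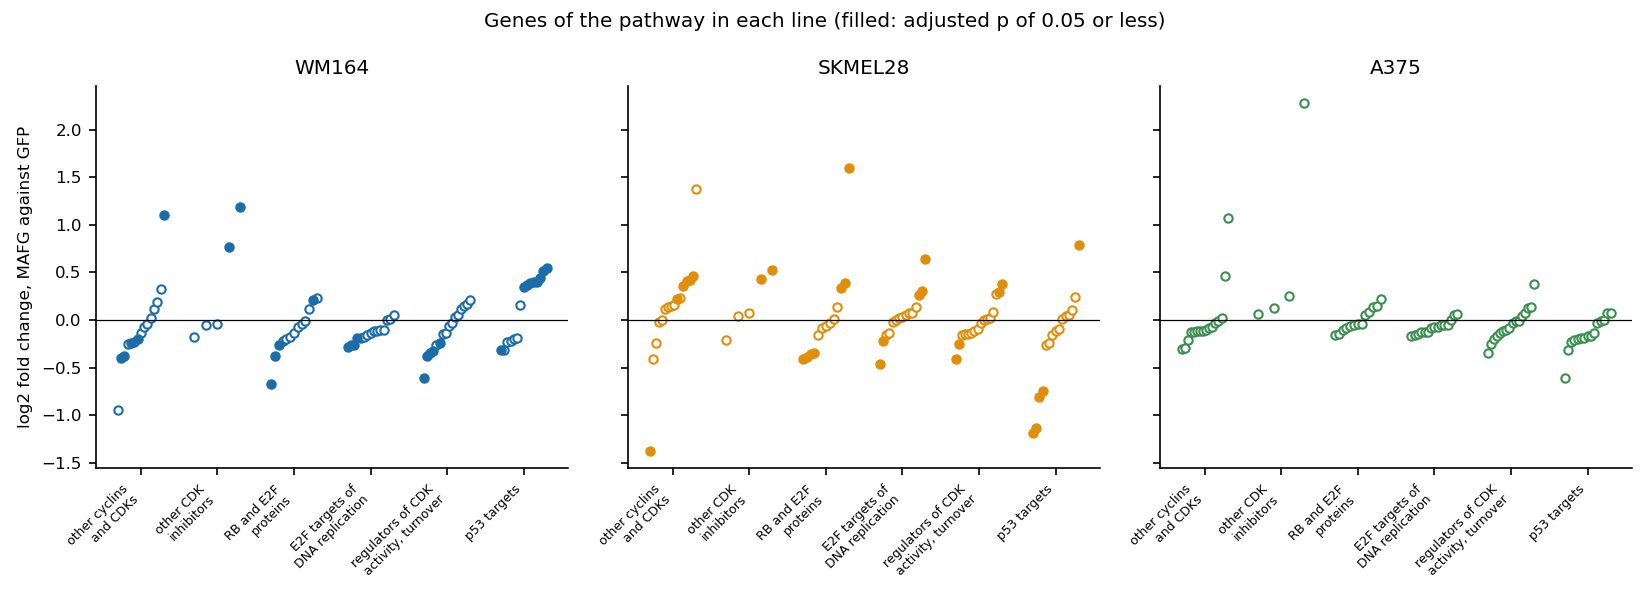
Log2 fold changes of MAFG against GFP (vertical axis) for every tested gene of the 6 pathway lists (horizontal axis), with a panel for each cell line; filled points have an edgeR adjusted p of 0.05 or less. Regulators and E2F targets called in WM164 all lie below 0, in shares near that of all genes called there. The p53 targets called there lie above 0 in 7 of 8 cases, and no point is filled in A375. Of all genes called in WM164, 2580 were higher and 2485 lower.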

How the data were processed

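RNA was isolated from the cells and made into 18 libraries, 3 for each of 6 groups, which were sequenced as 100-base read pairs. Per the labels and the study's methods, the authors trimmed reads with cutadapt 1.8.1, aligned them to GRCh38 with STAR 2.7.7a, used featureCounts to count the reads that aligned uniquely, normalized with DESeq2 and estimated TPM with RSEM 1.3.0. The deposited counts are whole-number reads per gene, without normalization, and the deposited TPM values are scaled by transcript length. Total counts per library were 20122172 to 39025042, and their number limits the precision of low genes.

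Here the counts were tested with edgeR 4.0.16 (R 4.3.3), using TMM normalization, filterByExpr, its quasi-likelihood test and p-values adjusted by the Benjamini-Hochberg method across every gene tested. MAFG was set against GFP in each line (6 libraries a fit), and 1 model of 18 libraries gave differences between responses and between GFP levels. Calls used an adjusted p of at most 0.05. Each ± after a log2 value is an SE worked back from the test, the absolute log2 value over the square root of its F statistic. CPM are TMM-scaled over the 18 libraries, and a floor of 3 counts was used for groups at 0. The fits were also run on simulated counts with a common spread for all genes and 200 changed genes. That simulation does not show how the fits behave where spread differs between genes or libraries. Alternatives were DESeq2 1.42.0, its size factors in edgeR, 2 other count filters, the replicate number as a block, limma 3.58.1 on log2(TPM + 1) and log2(TPM + 0.1) for genes of at least 1 TPM in 3 libraries, 1 model for all responses, and each library left out in turn. Positions and overlaps are from GENCODE 44.

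The members and lists were chosen with earlier results of these data known. From each list and line the rule for named genes took, per direction, the 2 called genes with the largest change, and for each member the genes most like it. Not every gene taken by this rule is named. CCNB1, MCM3, MCM5, PKMYT1, CDC20, FZR1, MDM2 and RB1 in SKMEL28 fall outside the rule and were chosen after their values were seen.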

Additional observations from a re-analysis of the deposited data

Results flagged for a closer look

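Each result below is a difference between the MAFG responses of 2 cell lines that passed the test of the difference itself, an interaction term in edgeR over the 18 libraries. For CDK2 the log2 response of WM164 minus that of SKMEL28 was -0.79, and WM164 minus A375 was -0.80. For CDK14 the fitted values were 7.77 (WM164 minus SKMEL28) and 8.01 (WM164 minus A375), and since the WM164 GFP libraries held 0 to 3 counts these sizes depend on the prior count and are no bound. For CDKN1A they were 1.28 and 1.12, with WM164 moving up and the other lines lying below their GFP libraries. CDK6 differed by 0.56 between WM164 and SKMEL28, CCND1 by 0.31 between WM164 and A375, and CDKN1B by -0.44 between SKMEL28 and A375. Over single libraries left out, the edgeR adjusted p reached 0.0529 for CDK6, 0.0637 for CCND1 and 0.0972 for CDKN1B. Over the other settings and their tests the highest adjusted p was 0.151 for CCND1, 0.334 for CDKN1B, and 0.229 and 0.268 for CDK2. Of all genes, 13.7% differed between WM164 and SKMEL28, 9.21% between WM164 and A375 and 9.51% between SKMEL28 and A375. Groups of 3 libraries are too small for a test of single outlying libraries.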

How the results depend on the processing

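Over the settings other than leaving out a library, 535 of the members' fold changes kept direction and side of the threshold, 24 lost the call, 13 gained it and 35 turned sign; over single libraries left out the numbers were 1117, 23, 6 and 30. The causes were not tested. TPM moved the median of all genes (log2(TPM + 1): 0.14 in WM164, -0.14 in SKMEL28, -0.10 in A375, 0.26 and 0.21 for WM164 minus SKMEL28 and minus A375, -0.42 and -0.35 for the same GFP levels). TPM values here are as fitted. Of the 14 sign reversals with log2(TPM + 1), 8 remained once that median was taken off. The 1 reversed value that had been called, the CDK6 GFP level in WM164 minus SKMEL28, was 0.27 relative to the median.

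With log2(TPM + 1) and log2(TPM + 0.1), genes changed were 1804 and 1515 in WM164 (383 and 602 past 2-fold), 2255 and 2016 in SKMEL28 (218 and 395), 24 and 28 in A375 (24 and 28). The difference WM164 minus A375 gave 1003 genes with log2(TPM + 0.1) and 2 members with each pseudocount, and SKMEL28 minus A375 gave 653 and 624 genes and 0 members. One model for all responses gave 3022 genes in WM164, 3038 in SKMEL28 and 506 (311 past 2-fold) with 1 member in A375. In A375, DESeq2 gave 278 genes (181 past 2-fold) and 1 member, no count filter 328 (216) and 1 member, and at least 10 counts in every library 84 (64); that filter gave 734 past 2-fold in WM164 and did not test CDK14 there. For SKMEL28 minus A375, DESeq2 and its size factors each called 2 members and no count filter 0.

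With the 2 pseudocounts in turn, sign reversals on TPM were, for MAFG against GFP, CDK4 (0.021, 0.022) and CDKN1B (0.074, 0.080) in WM164, CDK14 in SKMEL28 (-0.34, -0.43), and CDKN1B (-0.12, -0.13) and CDKN2A (-0.0077, -0.0074) in A375. For WM164 minus SKMEL28 they were CDK4 (0.28, 0.29) and CDKN2A (0.068, 0.067), and for WM164 minus A375 CCND3 (0.29, 0.30), CDK4 (0.25, 0.26), CDKN1B (0.19, 0.21) and CDKN2A (0.28, 0.28). For SKMEL28 minus A375 they were CDK14 (-0.34, -0.44) and, with log2(TPM + 1), CDKN1A (0.079), and for GFP levels CDK6 in WM164 minus SKMEL28 (-0.16, -0.17). No count filter turned CDK6 in WM164 (-0.0046) and CDK2 for SKMEL28 minus A375 (0.00019). DESeq2 and its size factors turned CDK2 (0.012, 0.012) and CDK4 (0.012, 0.012) there. Shares on counts in place of TPM moved as given for CDK4; those of CCND1 were 95.9% and 97.5% in WM164, 94.7% and 97.1% in SKMEL28 and 40.7% and 47.7% in A375.

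The replicate numbers did not pair the samples: same-numbered deviations correlated at -0.033 to 0.012. The fit with the replicate block called 5041 genes in WM164, 4676 in SKMEL28 and 64 in A375 (64 past 2-fold), and 0 members for SKMEL28 minus A375, where it turned CDK2 (0.0017) and CDK4 (0.0067). In it CCND1 for WM164 minus A375 (adjusted p = 0.0664), CDKN1B for SKMEL28 minus A375 (0.0536), and GFP levels of CDK6 (0.0578) and CDKN1A (0.0685) in WM164 minus SKMEL28 were not called.

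Leaving out single libraries gave 59 to 393 genes in A375 (55 to 153 past 2-fold) and 0 to 2 members, where each of the other 5 A375 libraries gave 59 to 83 genes, and 1312 to 2694 genes for WM164 minus A375, with the upper ends without A375 MAFG replicate 1, and 0 to 2 members for SKMEL28 minus A375. Log2 values that turned sign ran, in WM164, from -0.026 to 0.018 for CDK6, in SKMEL28 from -0.078 to 0.051 for CDK4, and in A375 from -0.18 to 0.063 for CDK4, -0.065 to 0.067 for CDK14, -0.030 to 0.063 for CDKN1B and -0.21 to 0.33 for CDKN2A. For WM164 minus A375 they ran from -0.16 to 0.22 for CCND3, -0.21 to 0.069 for CDK4 and -0.26 to 0.27 for CDKN2A, and for SKMEL28 minus A375 from -0.36 to 0.015 for CCND3, -0.083 to 0.14 for CDK2 and -0.11 to 0.17 for CDK4. Depth limits CDK14 and CCND2 where a library holds 3 counts or fewer.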
